A study of Mus musculus with 4 samples.

Results

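Genes of DNA replication and nucleotide supply were examined in neonatal mouse heart cell cultures that had received 1 of 2 microRNA mimics or a control treatment. The 42 genes were chosen by symbol for their known roles, with earlier results of these data already known. Of these, 11 license replication origins, 8 activate the replicative helicase, and 7 belong to the sliding clamp, its loader and single-strand binding. A further 10 are polymerase, primase and Okazaki fragment genes, and 6 encode enzymes that supply deoxynucleotides. All 42 were found among the 27267 genes of the tables. All 42 were also among the 13502 genes compared, which had a mean of at least 1 CPM (reads scaled to library size) over the libraries.

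The study sequenced RNA from cardiomyocytes of CD1 mice at postnatal day 1. It had 4 libraries, 1 per condition: mock transfection without a mimic, the mimic cel-miR-67, the mimic hsa-miR-590-3p and the mimic hsa-miR-199a-3p. Mimics were used at 50 nM by reverse transfection with Lipofectamine RNAiMAX, and RNA was taken after 72 h in all conditions. The microRNA cel-miR-67 is a nematode microRNA commonly used as a control mimic, and it shared the lipid treatment and the added RNA with the test mimics. The labels do not say how many animals each culture came from. With 1 library per condition there was no replicate check and no test between conditions, and each difference describes these libraries. A gene was counted only when a microRNA library lay on the same side of both control libraries.

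DNA replication starts when the origin recognition complex, with Cdc6 and Cdt1, loads the MCM helicase onto DNA, a step that geminin holds back. Kinases then activate the helicase together with Cdc45 and the GINS complex, and polymerases copy the opened strands with the help of a sliding clamp. Most of these genes are transcribed when cells prepare for S phase, under E2F factors, and heart muscle cells lower them as they leave the cell cycle soon after birth. Both test microRNAs are known from screens to raise DNA synthesis in cultured cardiomyocytes.

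The mature mouse miR-199a-3p is shown because the members lay highest in the library that received the human mimic of that name. RefSeq (GRCm38.p6) places it at chr1:162217883-162217904 on the plus strand and at chr9:21496498-21496519 on the minus strand. Capitals mark the seed, bases 2 to 8, which pairs with target transcripts.
mmu-miR-199a-3p: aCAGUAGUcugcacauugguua

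Promoter windows are shown for the members at least 2-fold above both controls whose window holds an E2F-type motif. A window covers 250 bases before and 50 bases after a start site in RefSeq (GRCm38.p6), and the motif was searched on both strands as TTTCCCGC, TTTCGCGC, TTTGCCGC or TTTGGCGC. Windows were found for 34 of the 42 members. Of their 40 windows, 21 had a start site within 5 bases of the gene start in RefSeq. Lig1 and Mcm7 also had windows without a match, which are not shown. Lig1, the DNA ligase that seals Okazaki fragments, has its match from base 26 after the start site in the window chr7:13278576-13278875 on the plus strand. Mcm7, a subunit of the MCM helicase, has matches from base -165 and from base 16 in the window chr5:138171834-138172133 on the minus strand. Capitals mark the matches.
Lig1: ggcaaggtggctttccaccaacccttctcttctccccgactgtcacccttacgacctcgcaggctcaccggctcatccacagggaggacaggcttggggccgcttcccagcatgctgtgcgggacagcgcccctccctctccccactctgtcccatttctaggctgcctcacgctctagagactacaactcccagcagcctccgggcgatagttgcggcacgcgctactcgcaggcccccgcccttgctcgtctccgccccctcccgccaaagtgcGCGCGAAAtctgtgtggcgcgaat
Mcm7: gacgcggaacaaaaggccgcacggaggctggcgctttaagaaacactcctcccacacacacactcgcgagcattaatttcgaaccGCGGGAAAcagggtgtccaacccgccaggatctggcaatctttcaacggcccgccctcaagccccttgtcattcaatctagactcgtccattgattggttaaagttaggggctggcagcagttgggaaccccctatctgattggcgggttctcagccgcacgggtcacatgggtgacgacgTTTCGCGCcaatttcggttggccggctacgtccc

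Mcm6, chosen after its values were seen, is shown as the member window with 3 matches, the first pair of which overlap. They begin at bases -110, -106 and -47 of the window chr1:128359656-128359955 on the minus strand.
Mcm6: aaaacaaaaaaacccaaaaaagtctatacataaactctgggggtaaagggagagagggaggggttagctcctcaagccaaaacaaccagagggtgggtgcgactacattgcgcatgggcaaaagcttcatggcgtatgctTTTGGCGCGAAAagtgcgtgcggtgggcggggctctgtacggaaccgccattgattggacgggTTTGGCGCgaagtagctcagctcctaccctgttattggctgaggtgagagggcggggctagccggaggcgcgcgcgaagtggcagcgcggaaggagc

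The E2F-type motif stood in a window of 13 of the 34 members (38.2%). It stood in one of 480 of 10119 compared genes with a window (4.74%) and of 704 of all 27025 genes with a window (2.6%). The members with a match were Orc1, Cdc6, Cdt1, Mcm3, Mcm5, Mcm6, Mcm7, Gins3, Rfc3, Pola1, Pold1, Pole2 and Lig1. CCAAT stood in the windows of 19 members (55.9%) against 43.0% of compared genes, and the GC box GGGCGG in those of 26 members (76.5%) against 69.6%. Median GC content was 60.7% in the members' windows and 61.0% in those of the compared genes. The 13 members with an E2F-type match had a median log2 ratio of 0.91 for hsa-miR-199a-3p over cel-miR-67, against 0.81 for the 21 members without one. For hsa-miR-590-3p over cel-miR-67 the medians were 0.52 and 0.47. Tk1 and Dut, whose ratios were among the highest, had no match in their windows, and bases outside the windows were not searched. A match is a description of the letters and not a shown binding site.

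Both test microRNA libraries held more replication transcripts than either control. Reads on the 42 members made up 0.119% of all reads in mock, 0.129% in cel-miR-67, 0.184% in hsa-miR-590-3p and 0.244% in hsa-miR-199a-3p. In CPM scaled by the TMM method, which sets the bulk of genes equal between libraries, the members summed to 1238, 1319, 1791 and 2347 in the same order. The cells were sequenced as a mixture, so more cells in S phase and more RNA per cell cannot be told apart. Libraries had 31638930 to 38745528 reads, 67.6% to 68.7% of them placed uniquely, and 0.370% to 0.813% of reads lay on ribosomal RNA records.

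Ratios below are of scaled CPM, and log2 ratios include a prior count of 0.5. Under hsa-miR-590-3p, 40 of the 42 members lay above both controls, as did 35.6% of all compared genes. Under hsa-miR-199a-3p all 42 did, against 40.2% of compared genes. The exceptions under hsa-miR-590-3p were the GINS genes Gins3 and Gins4, both of which lay above both controls when libraries were scaled by total counts or compared as the authors' RPKM. The members' median log2 ratio under hsa-miR-590-3p was 0.47 over cel-miR-67 and 0.56 over mock. Under hsa-miR-199a-3p the medians were 0.78 and 0.88. The median of all compared genes lay between -0.01 and 0.00 in these contrasts.

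Few members passed 2-fold under hsa-miR-590-3p and more did under hsa-miR-199a-3p. At 1.5-fold above both controls there were 10 members under hsa-miR-590-3p, beside 2.68% of compared genes, and 29 under hsa-miR-199a-3p, beside 6.72%. At 2-fold the counts were 1 member (0.356% of compared genes) and 9 members (2.4% of compared genes). The 1 member was Tk1, and the 9 were Mcm2, Mcm7, Cdc45, Rfc4, Prim1, Lig1, Rrm2, Tk1 and Dut. Under hsa-miR-199a-3p the ratios of the 9 over mock ran from 2.06 for Rrm2 to 2.70 for Lig1. Scaling by total counts gave 2 and 14 members at 2-fold, and 16 at 1.5-fold under hsa-miR-590-3p. Exact 95% intervals that cover counting error only had both lower bounds at or above 2-fold for Mcm7, Lig1, Tk1 and Dut under hsa-miR-199a-3p, and for 0 members under hsa-miR-590-3p. No member was 1.5-fold below both controls under either microRNA. Of the 13502 compared genes 184 were so under hsa-miR-590-3p and 1132 under hsa-miR-199a-3p.

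**Figure D1:**
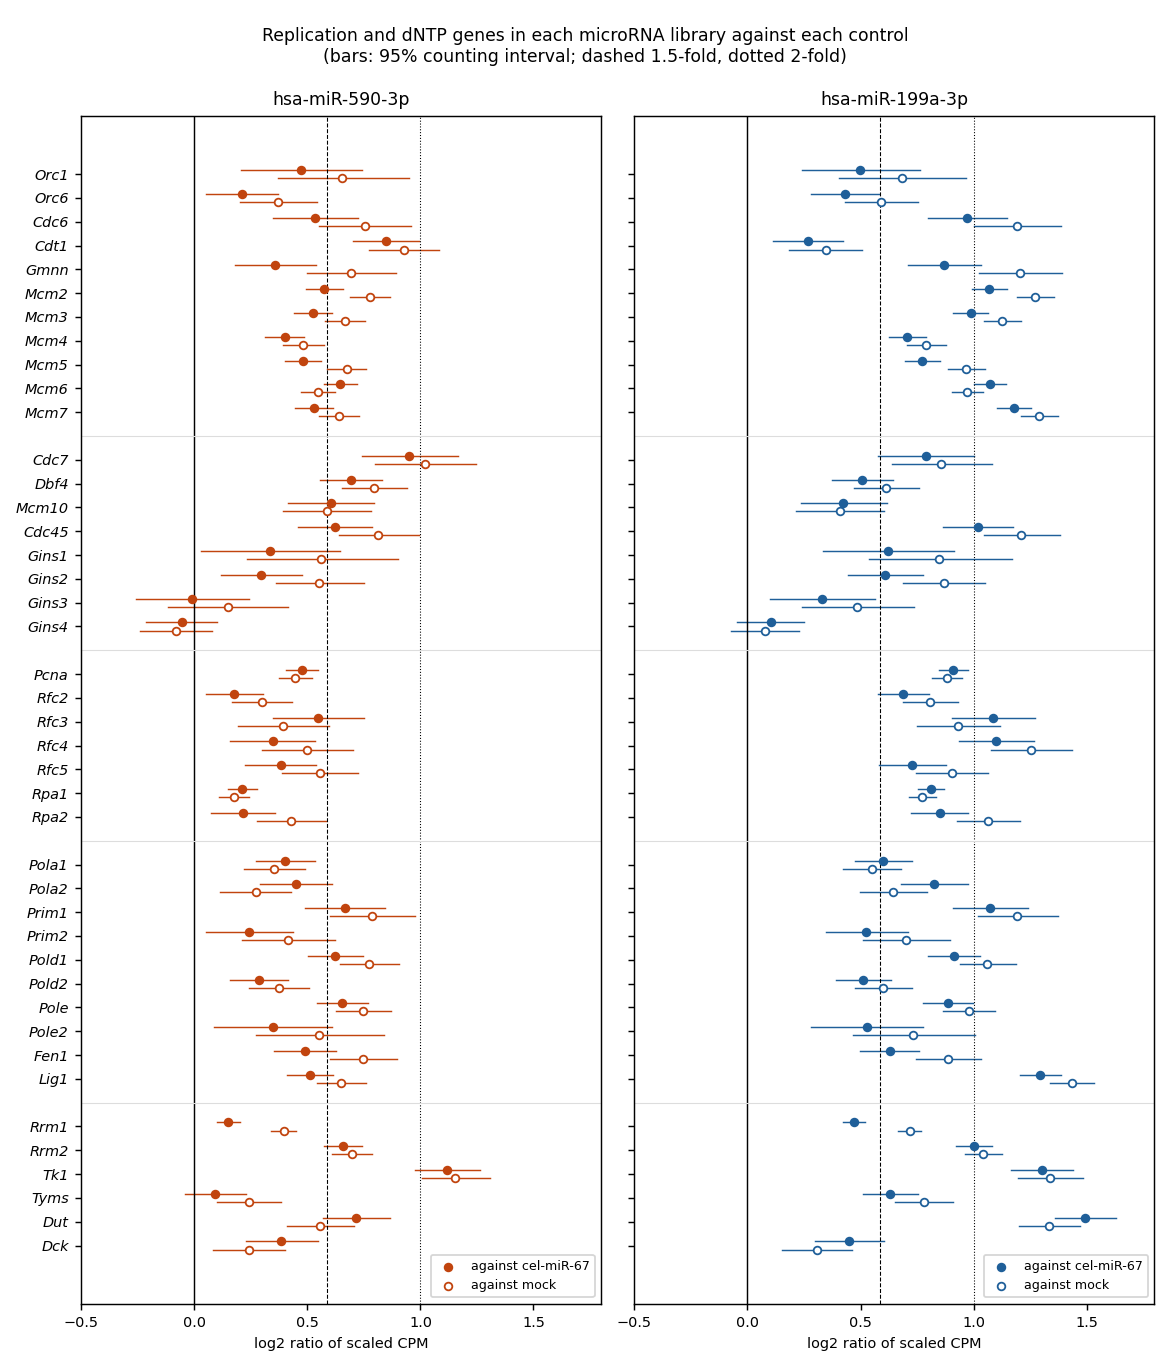
Log2 ratio of scaled CPM of each of the 42 members, by role from licensing (top) to deoxynucleotide supply (bottom), in the hsa-miR-590-3p library (left) and the hsa-miR-199a-3p library (right), over cel-miR-67 (filled) and over mock (open). Bars are 95% counting intervals and vertical lines mark 1.5-fold and 2-fold; under hsa-miR-590-3p only Tk1 lay past 2-fold over both controls, while 9 genes did under hsa-miR-199a-3p, and Gins3 and Gins4, near 0 at left, lay above both controls when scaled by total counts.

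Under hsa-miR-199a-3p the licensing genes had their highest ratios over cel-miR-67 in the MCM helicase, whose subunits unwind DNA ahead of the fork. All 11 lay above both controls under both microRNAs, beside 35.6% of compared genes under hsa-miR-590-3p and 40.2% under hsa-miR-199a-3p. The median log2 ratios of the 11 over cel-miR-67 were 0.52 under hsa-miR-590-3p and 0.87 under hsa-miR-199a-3p. Mcm2 had 1557 reads in mock, 1973 in cel-miR-67, 3103 in hsa-miR-590-3p and 4989 in hsa-miR-199a-3p. It stood 1.49 times as high as in cel-miR-67 under hsa-miR-590-3p (counting interval 1.41 to 1.58) and 2.10 times under hsa-miR-199a-3p (1.99 to 2.21). Mcm7 had 1615, 1920, 2930 and 5235 reads in the same order of libraries. Relative to cel-miR-67 it stood at 1.44 times the level (1.36 to 1.53) under hsa-miR-590-3p and 2.26 (2.15 to 2.39) under hsa-miR-199a-3p, the highest of the helicase subunits in the latter. Both controls were thus below both test libraries for each of these subunits, and hsa-miR-199a-3p was the highest library.

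Mcm6 had the highest level per length of the licensing genes in mock, with an RPKM (reads scaled to transcript length and library depth) of 24.98, and 23.7 in cel-miR-67, 39.0 in hsa-miR-590-3p and 53.1 in hsa-miR-199a-3p. Its reads numbered 2293, 2355, 3895 and 5964. Under hsa-miR-199a-3p its ratio was 2.10 over cel-miR-67 and 1.96 over mock, so it missed the 2-fold count by its ratio over mock. Mcm3 stood at 1.98 and 2.18 and missed it by its ratio over cel-miR-67, Mcm5 stood at 1.71 and 1.95, and Mcm4 at 1.63 and 1.73. The summed RPKM of the 6 helicase subunits was 107.8 in mock, 116.8 in cel-miR-67, 177.9 in hsa-miR-590-3p and 247.8 in hsa-miR-199a-3p. The highest subunit had 1.81 times the RPKM of the lowest in mock and 2.18 times in hsa-miR-199a-3p, where Mcm7 took the first place from Mcm6.

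The loaders and their inhibitor did not share one order of libraries. Cdc6, the ATPase that brings the helicase to origins, had log2 ratios over cel-miR-67 of 0.54 under hsa-miR-590-3p and 0.97 under hsa-miR-199a-3p. Gmnn, which encodes the Cdt1 inhibitor geminin, had 0.36 and 0.87. Cdt1, the loading factor that geminin binds, went the other way, with 503 reads in mock, 585 in cel-miR-67, 1113 in hsa-miR-590-3p and 847 in hsa-miR-199a-3p. Over cel-miR-67 its ratio was 1.8 (1.63 to 1.99) under hsa-miR-590-3p and 1.20 (1.08 to 1.34) under hsa-miR-199a-3p, the lowest licensing ratio in that library.

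The origin recognition subunits mark the sites where licensing starts. Orc1, the only member below an RPKM of 2 in mock, stood at 1.63 RPKM in mock, 1.88 in cel-miR-67, 2.74 in hsa-miR-590-3p and 2.83 in hsa-miR-199a-3p. Orc6 had 474, 583, 713 and 946 reads, and its log2 ratio over cel-miR-67 was 0.21 under hsa-miR-590-3p, the lowest of the licensing genes there, and 0.43 under hsa-miR-199a-3p. Nearly all Orc6 reads could be placed in more than 1 way (0.074% unique), and the value rests on the sum over 3 records. With only its record of most reads, its smaller log2 ratio to the controls was 0.61 under hsa-miR-590-3p and 0.03 under hsa-miR-199a-3p.

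Among the helicase activators the kinase genes were at least as high under hsa-miR-590-3p as under hsa-miR-199a-3p. Cdc7, the kinase that phosphorylates the loaded helicase, had 238 reads in mock, 275 in cel-miR-67, 562 in hsa-miR-590-3p and 572 in hsa-miR-199a-3p. Its ratios over cel-miR-67 were 1.93 (1.67 to 2.24) and 1.73 (1.49 to 2.0). Dbf4, its activating subunit, had log2 ratios over cel-miR-67 of 0.69 and 0.51, but only 2.65% of its reads were unique, and on unique reads, 14 to 30 per library, both log2 ratios over cel-miR-67 were below 0 (-0.19 and -0.17). Mcm10, which joins the helicase to the primase polymerase, had log2 ratios over cel-miR-67 of 0.60 under hsa-miR-590-3p and 0.42 under hsa-miR-199a-3p.

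Cdc45, the helicase cofactor, followed the MCM pattern. It had 387 reads in mock, 487 in cel-miR-67, 792 in hsa-miR-590-3p and 1188 in hsa-miR-199a-3p. Its ratio over cel-miR-67 was 1.54 (1.37 to 1.73) under hsa-miR-590-3p and 2.02 (1.82 to 2.26) under hsa-miR-199a-3p, so its place past 2-fold is within counting error. The 8 activator genes had median log2 ratios over cel-miR-67 of 0.47 and 0.56 under the respective microRNAs.

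The GINS complex, the third part of the active helicase, had the lowest ratios of the complexes summed here, and its 4 subunits were unequal. Gins4, the subunit with the highest RPKM of the activators in mock, stood at 14.2 RPKM in mock, 14.2 in cel-miR-67, 14.3 in hsa-miR-590-3p and 16.2 in hsa-miR-199a-3p. It had 612, 662, 673 and 856 reads, and its log2 ratio over cel-miR-67 of -0.06 under hsa-miR-590-3p turned positive when libraries were scaled by total counts. Under hsa-miR-199a-3p its log2 ratio was 0.10 over cel-miR-67, with a counting interval of the ratio from 0.97 to 1.19 that includes no difference. Gins3 had 211, 259, 272 and 392 reads, with log2 ratios over cel-miR-67 of -0.01 under hsa-miR-590-3p, positive by total counts, and 0.33 under hsa-miR-199a-3p. Under hsa-miR-590-3p Gins1 was at 0.33 and Gins2 at 0.29, and under hsa-miR-199a-3p they were at 0.62 and 0.61. The summed RPKM of GINS was 30.8, 34.1, 39.4 and 47.7 in the 4 libraries.

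**Figure D2:**
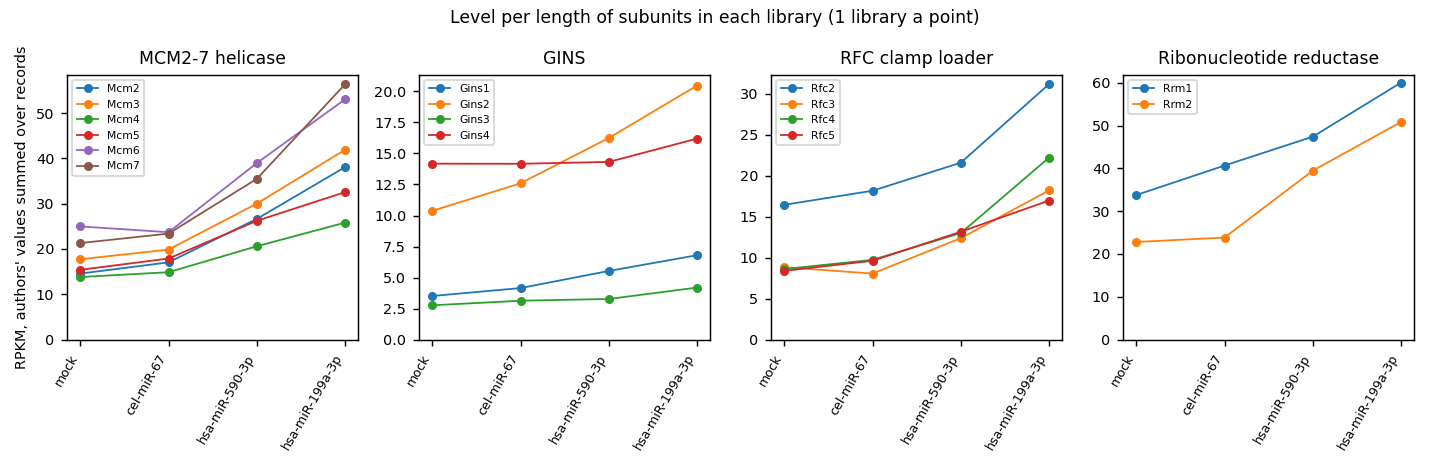
RPKM of each subunit of the MCM helicase, GINS, the RFC clamp loader and ribonucleotide reductase in the 4 libraries, 1 point per library, on axes that start at 0; lines only join the points of a gene. All 6 MCM subunits and the 4 plotted RFC subunits (Rfc2 to Rfc5, without the large subunit Rfc1) were highest in hsa-miR-199a-3p, whereas Gins4 went from 14.2 in both controls to 16.2, and Rrm1 lay above Rrm2 in each library.

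The clamp, its loader and the single-strand binding proteins showed the widest gap between the microRNAs. Their median log2 ratio over cel-miR-67 was 0.35 under hsa-miR-590-3p and 0.85 under hsa-miR-199a-3p. None of the 7 reached 1.5-fold over both controls under hsa-miR-590-3p, beside 2.68% of compared genes. All 7 did so under hsa-miR-199a-3p, beside 6.72%. Pcna, the sliding clamp and the most abundant member per length in every library, had an RPKM of 63.1 in mock, 62.9 in cel-miR-67, 91.8 in hsa-miR-590-3p and 126 in hsa-miR-199a-3p. Relative to cel-miR-67 it stood at 1.39 times the level (1.32 to 1.46) and then 1.88 (1.8 to 1.97), while the controls differed by less than counting error (0.981, interval 0.93 to 1.04).

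The RFC genes encode the loader that opens the clamp onto DNA. Rfc4 had 335 reads in mock, 410 in cel-miR-67, 551 in hsa-miR-590-3p and 1059 in hsa-miR-199a-3p. Over cel-miR-67 its ratio was 1.27 (1.12 to 1.45) under hsa-miR-590-3p and 2.14 (1.91 to 2.41) under hsa-miR-199a-3p. Rfc2, the subunit with the most RPKM, had 789, 944, 1128 and 1833 reads and the lowest ratios over cel-miR-67 of the group, 1.13 and 1.61. Rfc3 stood at log2 ratios of 0.55 and 1.09 and Rfc5 at 0.38 and 0.73 over cel-miR-67. The large subunit of the loader, Rfc1, is not among the 42 and was looked at after its values were seen; it had 1753 reads in mock, 2183 in cel-miR-67, 2410 in hsa-miR-590-3p and 2498 in hsa-miR-199a-3p. Its log2 ratio over cel-miR-67 was 0.06 in the hsa-miR-590-3p library and -0.07 in the hsa-miR-199a-3p library, the latter turning to 0.02 by total counts or on the authors' RPKM. The higher ratios of Rfc2 to Rfc5 thus did not extend to every subunit of the loader. Over cel-miR-67, Rpa1 and Rpa2, which coat single-stranded DNA, had the same log2 ratio of 0.21 under hsa-miR-590-3p, and 0.81 and 0.85 under hsa-miR-199a-3p. Over mock they differed, with 0.17 for Rpa1 and 0.43 for Rpa2 under hsa-miR-590-3p, and 0.77 and 1.065 under hsa-miR-199a-3p. Only 2.09% of Rpa1 reads were unique, and on those the smaller of its ratios to the controls under hsa-miR-590-3p was a log2 of -0.02.

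Of the 10 polymerase, primase and Okazaki fragment genes, all lay above both controls under both microRNAs, beside 35.6% and 40.2% of compared genes. Median log2 ratios over cel-miR-67 were 0.47 and 0.73. Lig1 had 1077 reads in mock, 1305 in cel-miR-67, 1964 in hsa-miR-590-3p and 3858 in hsa-miR-199a-3p. Its ratio over cel-miR-67 was 1.42 (1.33 to 1.53) under hsa-miR-590-3p and 2.45 (2.31 to 2.62) under hsa-miR-199a-3p. The count sums 3 transcript records between which most reads could not be placed uniquely. On its unique reads, 41, 37, 55 and 120 in the 4 libraries, the log2 ratio under hsa-miR-199a-3p was 1.41 over cel-miR-67 and 1.16 over mock.

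Prim1, the catalytic primase subunit that starts each Okazaki fragment, had 348 reads in mock, 417 in cel-miR-67, 699 in hsa-miR-590-3p and 1056 in hsa-miR-199a-3p. Relative to cel-miR-67 it stood at 1.59 times the level (1.40 to 1.79) and then 2.10 (1.88 to 2.36). Its partner Prim2, the large primase subunit, had 322, 400, 500 and 694 reads, with ratios over cel-miR-67 of 1.18 and 1.44, the lowest of this role under hsa-miR-590-3p. The catalytic subunits of the leading and lagging strand polymerases, Pole and Pold1, had log2 ratios over cel-miR-67 of 0.65 and 0.62 under hsa-miR-590-3p, which became 0.89 and 0.91 in the hsa-miR-199a-3p library. Their partners were lower: Pole2 stood at 0.35 and 0.53. Pold2, with the highest RPKM of this role in mock, had 758, 887, 1142 and 1523 reads and log2 ratios of 0.28 and 0.51 over cel-miR-67. Fen1, the nuclease that trims Okazaki fragments, had 0.49 and 0.63, and the polymerase alpha genes Pola1 and Pola2 had 0.40 and 0.45 under hsa-miR-590-3p and 0.60 and 0.82 under hsa-miR-199a-3p. Over cel-miR-67 the catalytic subunit was thus above its partner in the primase, delta and epsilon pairs under both microRNAs. In the alpha pair under hsa-miR-590-3p the order depended on the control, since over mock Pola1 had 0.35 and Pola2 0.27.

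Deoxynucleotide supply held the highest ratio over cel-miR-67 under each microRNA, and also some of the lower ones. Tk1, the thymidine kinase of the salvage pathway, had 504 reads in mock, 569 in cel-miR-67, 1305 in hsa-miR-590-3p and 1690 in hsa-miR-199a-3p. Under hsa-miR-590-3p it stood at 2.17 times cel-miR-67 and 2.22 times mock, and the counting interval over cel-miR-67 was 1.96 to 2.40 under hsa-miR-590-3p and 2.24 to 2.72 under hsa-miR-199a-3p. Dut, which removes dUTP from the nucleotide pool, had 588, 580, 1007 and 1966 reads. Under hsa-miR-590-3p its ratio over cel-miR-67 was 1.64 (1.48 to 1.82), and under hsa-miR-199a-3p it was 2.81 (2.56 to 3.09), the highest ratio over that control among the members. Only 5.70% of its reads were unique. On these, 33, 26, 73 and 104 in the 4 libraries, log2 ratios over cel-miR-67 were 1.39 and 1.71.

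Ribonucleotide reductase, which makes deoxynucleotides from ribonucleotides, has a large subunit, Rrm1, and a small subunit, Rrm2, that is limited to S phase. Rrm2 had 1586 reads in mock, 1796 in cel-miR-67, 2991 in hsa-miR-590-3p and 4334 in hsa-miR-199a-3p. Over cel-miR-67 its ratio was 1.58 (1.49 to 1.67) and 2.0 (1.90 to 2.12). Rrm1 had 4271, 5568, 6530 and 9304 reads, with ratios of 1.11 (1.07 to 1.15) and 1.39 (1.34 to 1.43). The subunits' RPKM were closer to each other in the test libraries: Rrm1 stood at 1.48 times Rrm2 in mock, 1.71 times in cel-miR-67, 1.20 times in hsa-miR-590-3p and 1.18 times in hsa-miR-199a-3p. The 2 controls also differed in Rrm1, where cel-miR-67 was 1.18 times mock (1.14 to 1.23).

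Tyms, the thymidylate synthase, had 698 reads in mock, 851 in cel-miR-67, 959 in hsa-miR-590-3p and 1589 in hsa-miR-199a-3p. Under hsa-miR-590-3p its ratio over cel-miR-67 was 1.07 (0.97 to 1.17), within counting error, and under hsa-miR-199a-3p it was 1.55 (1.43 to 1.69). Dck, the deoxycytidine kinase, had 562, 560, 773 and 921 reads and ratios over cel-miR-67 of 1.31 and 1.37, the latter the lowest of this role under hsa-miR-199a-3p. The salvage kinases were thus unequal, with Tk1 past 2-fold in both test libraries and Dck below 1.5-fold in both.

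**Figure D3:**
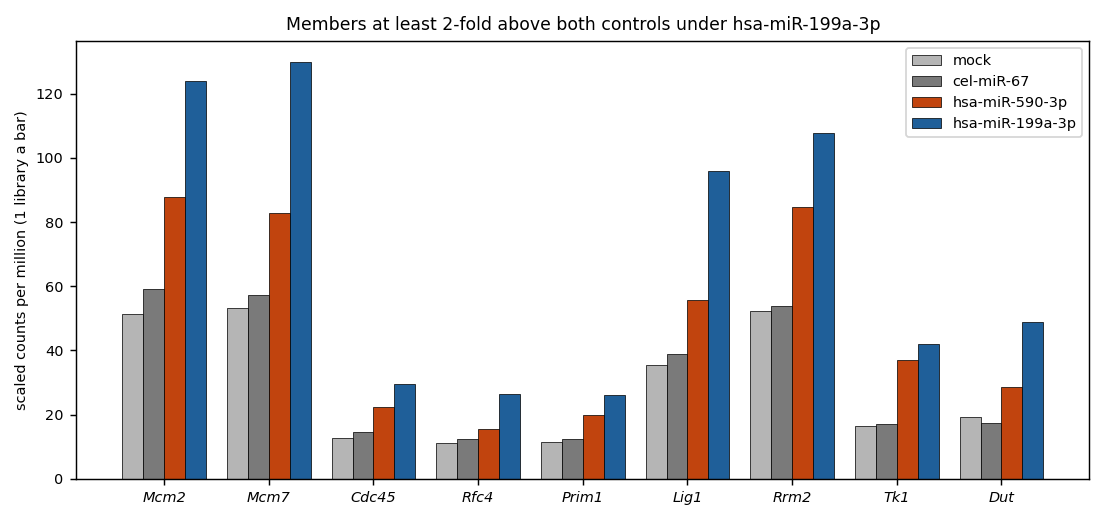
Scaled CPM of the 9 members at least 2-fold above both controls under hsa-miR-199a-3p, 1 bar per library in the order of the legend, with no error bars because each condition had 1 library. In all 9 genes both test libraries stood above both controls and hsa-miR-199a-3p was highest; for Tk1 the hsa-miR-590-3p bar came closest to it, at a log2 ratio of -0.18.

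The direct comparison of the test libraries needs no control library. Of the 42 members, 38 had a lower value in the hsa-miR-590-3p library than in the hsa-miR-199a-3p library, beside 49.6% of compared genes, and 6 were at least 1.5-fold lower, beside 6.5% of compared genes. The median log2 ratio of hsa-miR-590-3p over hsa-miR-199a-3p was -0.33, beside 0.00 for all compared genes. The 6 were Lig1 (-0.79), Dut (-0.78), Rfc4 (-0.75), Mcm7 (-0.65), Rpa2 (-0.64) and Rpa1 (-0.60). Of Dut reads 5.7% were unique, and on those its log2 ratio was -0.32, short of 1.5-fold. By role the medians were -0.54 for the clamp, loader and single-strand binding genes, -0.43 for licensing, -0.33 for deoxynucleotide supply, -0.26 for the polymerase group and -0.22 for the activators. The 4 members that were higher under hsa-miR-590-3p act at licensing and helicase activation: Cdt1 (0.58), Dbf4 (0.18), Mcm10 (0.18) and Cdc7 (0.16). For Cdt1 the ratio was 1.5 (1.37 to 1.64). The interval for Cdc7 included no difference (0.99 to 1.26), and on unique reads Dbf4 stood at a log2 of -0.02.

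**Figure D4:**
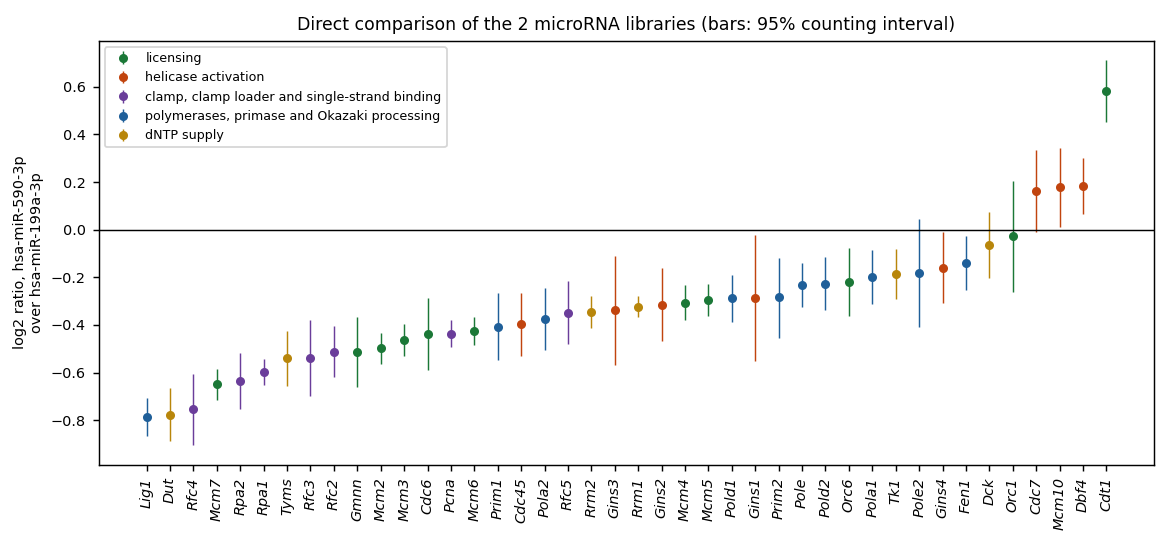
Log2 ratio of scaled CPM, hsa-miR-590-3p over hsa-miR-199a-3p, for each of the 42 members in order of the ratio, coloured by role, with 95% counting intervals. Points below 0 had a lower value under hsa-miR-590-3p: 38 members lay there, from Lig1 at -0.79, and Cdt1 lay farthest above 0, at 0.58.

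The control libraries were not identical for these genes. Of the 42 members, 32 were higher in cel-miR-67 than in mock, beside 50.3% of compared genes, with a median log2 ratio of 0.13. The range ran from -0.18 for Pola2 to 0.33 for Gmnn. Counting intervals lay above no difference for 12 members and below it for 2. No member was 1.5-fold higher in cel-miR-67, beside 2.82% of compared genes. The test libraries' median ratios were larger than this control difference over either control.

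Further genes of the pathway were grouped by function. Of 28 other replisome and origin genes, 20 lay above both controls under each microRNA, beside 35.6% of compared genes under hsa-miR-590-3p and 40.2% under hsa-miR-199a-3p. Under hsa-miR-590-3p 5 of the 28 lay below both controls (1 by total counts), beside 36.6% of compared genes, and under hsa-miR-199a-3p 6 did, beside 41.9%. Their median log2 ratio over cel-miR-67 was 0.32 under both. Dna2, a nuclease and helicase of Okazaki fragment processing, had 113 reads in mock, 164 in cel-miR-67, 373 in hsa-miR-590-3p and 554 in hsa-miR-199a-3p, with log2 ratios over cel-miR-67 of 1.10 and 1.49. Dscc1, of the alternative clamp loader, had 54, 55, 105 and 158 reads and passed 2-fold under hsa-miR-199a-3p at a log2 of 1.25. At the other end stood Pold4, a small polymerase delta subunit, at -0.31 under hsa-miR-590-3p, and Top1, the topoisomerase, at -0.57 under hsa-miR-199a-3p.

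Of 10 genes that restore chromatin behind the fork, 9 lay above both controls under hsa-miR-590-3p and 8 under hsa-miR-199a-3p. The shares of compared genes that did were 35.6% and 40.2%. Esco2, the cohesin acetyltransferase of S phase, had 156 reads in mock, 180 in cel-miR-67, 482 in hsa-miR-590-3p and 479 in hsa-miR-199a-3p, with log2 ratios over cel-miR-67 of 1.34 and 1.14. Chaf1b, of the histone assembly factor CAF-1, and the histone chaperone gene Asf1b passed 2-fold under hsa-miR-199a-3p, at log2 ratios over cel-miR-67 of 1.10 and 1.08. The paralogue Asf1a stood at -0.15 and -0.25 over cel-miR-67 under the respective microRNAs, and at 0.05 and -0.05 over mock. By total counts none of the 10 genes lay below both controls.

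The nucleotide pathways upstream were closer to the bulk of genes. Median log2 ratios over cel-miR-67, first for hsa-miR-590-3p, then for hsa-miR-199a-3p, were 0.10 and 0.25 for 10 other deoxynucleotide enzymes, 0.08 and 0.41 for 6 folate enzymes, 0.05 and 0.25 for 13 purine enzymes, and -0.05 and 0.36 for 6 pyrimidine enzymes. Under hsa-miR-590-3p 5, 2, 3 and 2 genes of these lists lay above both controls, in the same order, beside 35.6% of compared genes. Under hsa-miR-199a-3p 6, 5, 8 and 5 did, beside 40.2%. No gene of these lists passed 2-fold over both controls in either direction. Shmt1, the cytosolic serine hydroxymethyltransferase that works with thymidylate synthase, was the highest folate gene at 0.37 and 0.83. The mitochondrial thymidine kinase Tk2 was the lowest of the other deoxynucleotide enzymes over cel-miR-67 at -0.31 and -0.16, in contrast to the cytosolic Tk1. Over mock the lowest was Rrm2b, at -0.43 and -0.70. The controls also differed in Rrm2b, with a log2 ratio of -0.60 for cel-miR-67 over mock. Under total counts the pyrimidine median under hsa-miR-590-3p was 0.02.

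**Figure D5:**
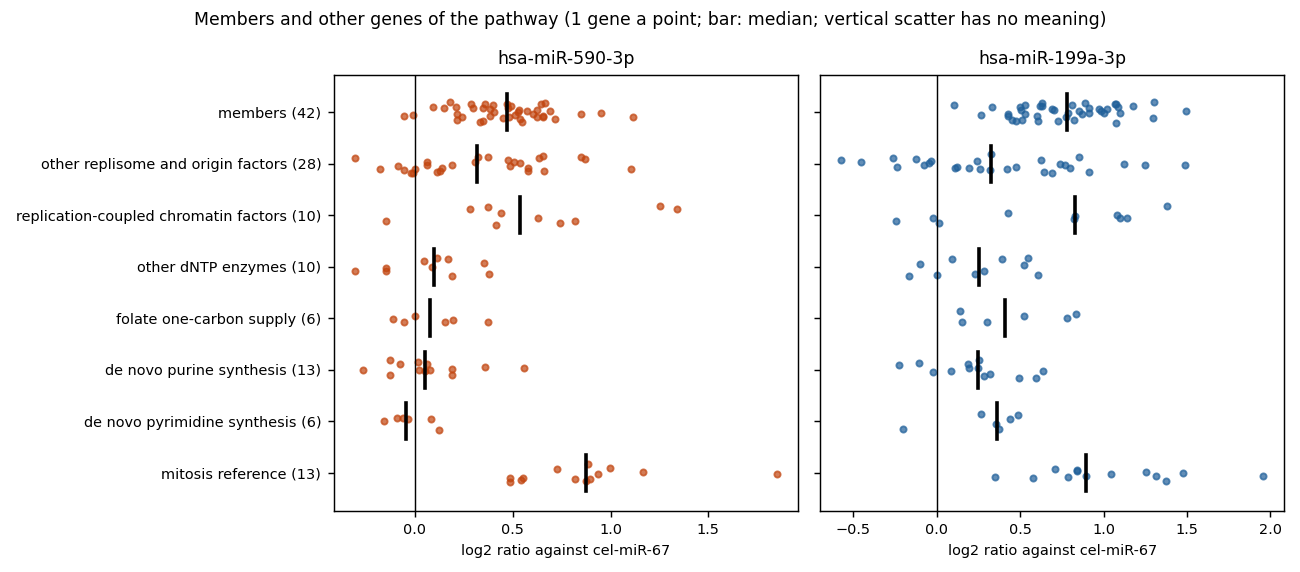
Log2 ratio over cel-miR-67 of the 42 members, of 6 further lists of the pathway and of 13 mitosis genes, 1 point per gene, with the median as a bar; the vertical scatter has no meaning. The members and the chromatin genes lay to the right, with medians of 0.47 and 0.53 under hsa-miR-590-3p and 0.78 and 0.83 under hsa-miR-199a-3p, and the purine and pyrimidine genes lay nearer 0, the pyrimidine median of -0.05 at left turning positive when libraries were scaled by total counts.

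Mitosis genes, a reference list of the later cell cycle, were also higher in both test libraries. All 13 lay above both controls under both microRNAs, beside 35.6% of compared genes under hsa-miR-590-3p and 40.2% under hsa-miR-199a-3p. Their median log2 ratio over cel-miR-67 was 0.87 under hsa-miR-590-3p and 0.89 under hsa-miR-199a-3p, and their summed scaled CPM was 632 in mock, 685 in cel-miR-67, 1278 in hsa-miR-590-3p and 1258 in hsa-miR-199a-3p. Gene by gene, 8 of the 13 had a lower value in the hsa-miR-590-3p library than in the other and 5 a higher one. Of all compared genes 49.6% were lower there. The median log2 ratio of the 13 was -0.34, beside -0.33 for the members, of which 38 of 42 were lower. The 13 ran from Aurka, a spindle kinase, at -0.77 to Mki67, the proliferation antigen, at 0.54.

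Markers of heart cell types moved in the same libraries. All 8 cardiomyocyte markers were abundant, as the labelled cell type calls for, and all 8 lay below both controls under both microRNAs and under each scaling tried. The share of compared genes below both controls was 36.6% under hsa-miR-590-3p and 41.9% under hsa-miR-199a-3p. Their summed scaled CPM was 55429 in mock, 50072 in cel-miR-67, 38354 in hsa-miR-590-3p and 36748 in hsa-miR-199a-3p. Fibroblast markers summed to 10433 CPM in mock, 9945 in cel-miR-67, 11252 in hsa-miR-590-3p and 11696 in hsa-miR-199a-3p. Smooth muscle and pericyte markers summed to 4476, 5367, 5102 and 6396 CPM in that order. Both sums were highest in the hsa-miR-199a-3p library. Most of the fibroblast sum was Col1a1 and Col1a2, at 6089 and 3398 CPM in that library. The median log2 ratio of the fibroblast markers there was -0.63 over cel-miR-67 and -0.35 over mock. Most of the smooth muscle and pericyte sum was Acta2, at 4591 CPM in that library. Of the 7 smooth muscle and pericyte markers, 3 lay above and 3 below both controls under hsa-miR-199a-3p. Under hsa-miR-590-3p 3 of them lay above and 2 below. Endothelial markers summed to 181 to 242 CPM and epicardial markers to 224 to 277. Of 8 fibroblast markers, 4 lay above and 2 below both controls under hsa-miR-590-3p, and 3 above and 5 below under hsa-miR-199a-3p. Beside these fibroblast and smooth muscle counts, 35.6% of compared genes lay above both controls under hsa-miR-590-3p and 40.2% under hsa-miR-199a-3p. Macrophage and leukocyte markers summed to 3.6 to 8.5 CPM and were highest in mock, and only Cd68 and Csf1r of 7 were among the compared genes. No erythroid marker reached the level needed for comparison, and Hbb-bs had 0 reads. The part of cell type makeup in the members' ratios was not tested.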

How the data were processed

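RNA libraries were made with a TruSeq kit, per the labels' protocols. The submitters' processing notes name CASAVA 1.8 and mm8. Neither labels nor file headers name the tool that assigned reads to transcripts. The authors deposited, per the file headers, total gene reads and uniquely placed reads (counts) and RPKM for each of 36065 transcript records. They do not say how reads that fit several records were shared. Of the records, 27922 (77.4%) took their symbol from a RefSeq table by their identifier and 8143 from the file. Records were summed per gene. All 42 members were found, on 54 records, and 10 members had several.

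Counts were scaled with TMM factors (edgeR 4.0.16, R 4.3.3). Log2 ratios used a prior count of 0.5, and genes needed a mean of 1 CPM. Residual degrees of freedom were 0, so no p-values were computed. Intervals are exact Clopper-Pearson 95% intervals. Ratios were checked on simulated data. The simulated counts held counting error only and used the known library sizes, so the check covered neither scaling nor differences between cultures. DESeq2 1.42.0 size factors, total counts, unique reads, RPKM with a pseudocount of 0.1, other filters, a prior count of 5 and single records were alternatives.

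The members and lists were chosen with earlier results of these data known. Reads in all libraries are given for members 2-fold above both controls and for the highest (RPKM in mock) and lowest (ratio over cel-miR-67) member of each role, and for others that a result turns on. Of other lists, members past 2-fold or the extremes are named.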

Additional observations from a re-analysis of the deposited data

How the results depend on the processing

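No paired analysis was possible because there was 1 library per condition. There were 88 recomputed values: 6 medians and 4 counts under 8 alternatives, and the 4 counts against each control alone. Of these, 81 stayed within the tolerance, 7 moved and 0 reversed. The tolerance was 1.5 times for a count and 0.12 to 0.16 log2 for a median. The latter came from counting intervals of single genes, not from the counting error of a median. The other filters could not move any of these values, since all 42 members passed them with the same ratios. A count could not be labelled reversed. The median log2 ratios ranged from 0.47 to 0.54 (hsa-miR-590-3p over cel-miR-67), 0.55 to 0.65 (over mock), 0.75 to 0.87 (hsa-miR-199a-3p over cel-miR-67) and 0.87 to 0.99 (over mock). Total counts gave 2 members at 2-fold and 16 at 1.5-fold under hsa-miR-590-3p and 14 at 2-fold under hsa-miR-199a-3p, and the authors' RPKM gave 16 at 1.5-fold under hsa-miR-590-3p. With mock as the only control, chosen after seeing the data, these counts were 2, 19 and 14. The cause of these moves was not tested. Total counts moved the median of all genes to 0.10 for hsa-miR-199a-3p over mock, and the share of higher among 2-fold calls from 60.8% to 73.6% under hsa-miR-590-3p and from 50.6% to 63.2% under hsa-miR-199a-3p. At 1.5-fold these shares went from 66.3% to 81.0% and from 44.5% to 60.1%. Unique reads left 40 members to compare, of which 36 and 39 lay above both controls, and the 2-fold count under hsa-miR-199a-3p was 9, of which 8 were shared, with Tyms gained and Rrm2 lost. Depth limits the genes with few unique reads.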
